A study of Mus musculus with 14 samples.

Results

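A set of 10 genes of the immediate early and dissociation response was examined in single-cell RNA-seq of Atoh1-lineage cells of the mouse hindbrain. The 10 genes are Fos, Fosb, Jun, Junb, Egr1, Ier2, Dusp1, Btg2, Atf3 and Npas4. They were taken by symbol from the table of 31054 genes that all 14 libraries share, and all 10 were found there, 1 feature each. C57BL/6J animals that were Atoh1 Cre/+; Rosa lsl-tdTomato/+ (Ctrl) and Atoh1 Cre/S193A; Rosa lsl-tdTomato/+ animals (Atoh1S193A/-) were compared on embryonic days E14.5 and E18.5, with 3 hindbrains of each genotype at each age and 1 embryo per library. At postnatal day 5 (P5), pontine nuclei (PN) of Ctrl pups were pooled, 11 to 13 pups per library, and gave 2 libraries. Cells were dissociated with papain, and TdTomato-positive, DAPI-negative cells were sorted.

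Cre was knocked into 1 Atoh1 allele in both genotypes, so a Ctrl animal also carried a single intact copy, and a mutant animal had only the hypomorphic S193A allele. The reporter stays on in every descendant of an Atoh1-expressing cell. The S193A change does not remove the transcript, so UMI counts of Atoh1 do not check the genotype labels. Each mutant embryo was collected with a littermate control, and the replicate number was taken to name the litter.

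Immediate early genes are transcribed within minutes of a stimulus, without new protein synthesis, by transcription factors that are already in the nucleus. Growth factors, calcium entry at active synapses, heat, wounding and enzymatic dissociation of a tissue all switch them on, and most of the messages decay quickly. Fos and Fosb pair with Jun proteins to form AP-1, which binds DNA. Egr1 is a zinc finger factor of the same first wave, Dusp1 is a phosphatase that switches MAP kinases off, and Btg2 is an antiproliferative cofactor that is also known for its expression in neurogenic progenitors. Atf3 is a stress-induced bZIP factor, and Npas4 is a neuronal factor that follows calcium entry. Microglia, the resident macrophages of the brain, are known for a strong response of this kind during tissue dissociation.

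The 250 bases before the start site of 5 members are shown because cyclic AMP and calcium act on these genes through short elements close to the start. They are RefSeq sequences of build GRCm38.p6, read 5′ to 3′ on the strand of the gene. Capitals mark every match, on either strand, to the cyclic AMP response element (CRE, letters TGACGTCA) and its core, which is written TGACG. They also mark the AP-1 element (TGACTCA), both EGR elements (the T form GCGTGGGCG, and the G form, spelled GCGGGGGCG) and the TATA box (TATAAA). Fos lies on the plus strand of chromosome 12 (chr12:85473640-85473889), Fosb on the minus strand of chromosome 7 (chr7:19310046-19310295) and Junb on the minus strand of chromosome 8 (chr8:84978749-84978998). Dusp1 lies on the minus strand of chromosome 17 (chr17:26508473-26508722) and Btg2 on the minus strand of chromosome 1 (chr1:134079156-134079405).
Fos: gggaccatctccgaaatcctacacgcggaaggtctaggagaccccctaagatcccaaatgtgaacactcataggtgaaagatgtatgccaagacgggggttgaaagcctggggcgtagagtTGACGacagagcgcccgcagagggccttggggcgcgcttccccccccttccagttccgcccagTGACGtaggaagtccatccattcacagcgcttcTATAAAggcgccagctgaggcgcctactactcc
Fosb: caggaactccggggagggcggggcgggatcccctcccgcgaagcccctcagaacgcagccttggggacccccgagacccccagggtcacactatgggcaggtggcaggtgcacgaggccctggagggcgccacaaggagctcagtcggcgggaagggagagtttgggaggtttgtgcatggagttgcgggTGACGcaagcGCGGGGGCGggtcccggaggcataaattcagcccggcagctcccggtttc
Junb: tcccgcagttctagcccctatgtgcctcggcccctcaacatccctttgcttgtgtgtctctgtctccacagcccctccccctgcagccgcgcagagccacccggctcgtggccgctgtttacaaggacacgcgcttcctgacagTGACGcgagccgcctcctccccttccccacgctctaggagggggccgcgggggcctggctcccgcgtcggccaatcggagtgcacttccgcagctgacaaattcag
Dusp1: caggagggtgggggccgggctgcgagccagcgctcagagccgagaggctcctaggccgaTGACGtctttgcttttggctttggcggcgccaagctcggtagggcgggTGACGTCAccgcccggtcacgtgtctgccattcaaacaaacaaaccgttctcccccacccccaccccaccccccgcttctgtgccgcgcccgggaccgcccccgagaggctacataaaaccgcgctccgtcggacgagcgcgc
Btg2: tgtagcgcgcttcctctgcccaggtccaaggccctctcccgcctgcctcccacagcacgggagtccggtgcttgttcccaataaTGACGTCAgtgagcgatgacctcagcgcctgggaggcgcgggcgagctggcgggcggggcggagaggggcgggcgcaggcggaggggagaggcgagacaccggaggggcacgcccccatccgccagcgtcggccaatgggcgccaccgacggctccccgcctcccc

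The search covered the 8 members with a promoter entry, from 250 bases before the start site to 50 after it. Egr1 and Ier2 had none. A full CRE was present in 2 of the 8, at position -143 of Dusp1 and -166 of Btg2, against 1.79% of 32851 promoters. The core alone, which each full element also holds, was present in 7 of 8, all but Jun, against 20.8% of promoters. Fos held it at -129 and -66, and Atf3 held it at -7 on the other strand. TATAAA was found in Fos at -33 and in Junb at 1, against 13.6% of promoters. The G form of the EGR element was found in Fosb alone, at -50, against 2.91% of promoters. The T form (0.612% of promoters), TGACTCA (5.202%) and the CArG box (1.63%) had no match in the 8 windows. A match is a description of letters and not a binding site.

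Of the other members, no position is given for Egr1. Those placed are on chromosome 4 (Jun, chr4:95049034-95052222), chromosome 8 (Ier2, chr8:84661331-84662852), chromosome 1 (Atf3, chr1:191170296-191218039) and chromosome 19 (Npas4, chr19:4984355-4990316), all on the minus strand, by GENCODE positions on GRCm38.

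After filtering, 80250 cells of 150188 barcodes were kept, 3248 to 8726 per library, with a median of 12010.5 to 20924 unique molecular identifiers (UMIs) per cell. A library held 108239001 to 236964126 UMIs, and the 10 members took 0.0402 to 0.1015% of the UMIs of kept cells. Levels are given as CPM, the UMI count of a gene scaled to a common total, of a library or of a cell class in a library. Some libraries stood apart before any comparison. E14.5 Ctrl library 2 was the lowest of its group for 10 of 10 members and library 1 the highest for 9, and E18.5 Atoh1S193A/- library 3 was the highest of its group for 10 of 10. The matrix headers name Cell Ranger 3.1.0 in E14.5 Ctrl libraries 1 and 2 and version 5.0.1 elsewhere, so at E14.5 the version moves with genotype. The most barcodes shared by a pair of libraries was 67, and the largest share of the smaller library, in another pair, was 0.624%.

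**Figure D1:**
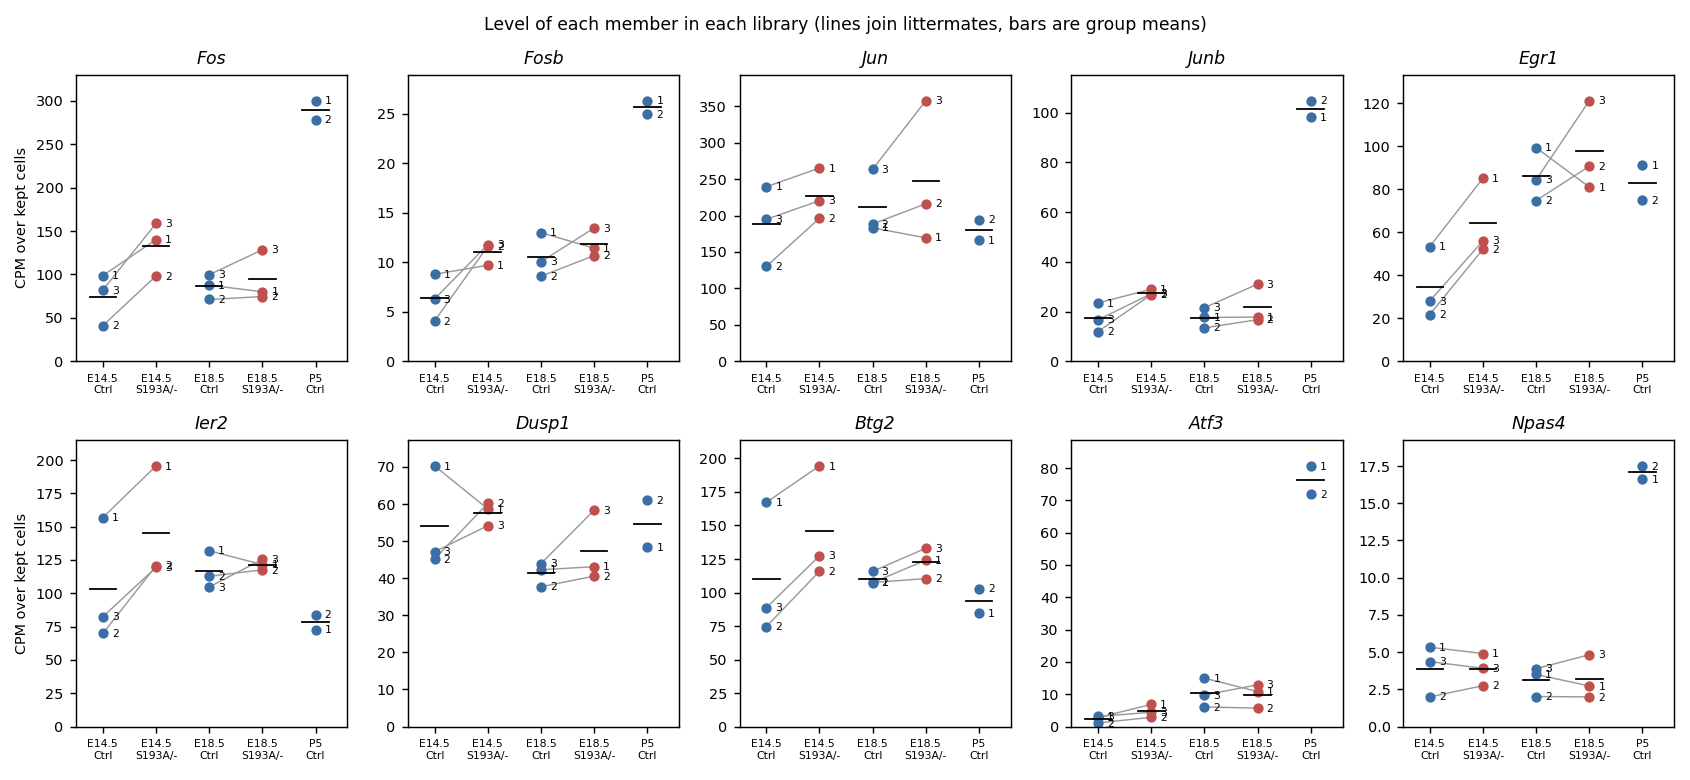
Level of each of the 10 members in each of the 14 libraries over all kept cells, in CPM on a linear axis that starts at 0. Points are libraries with their replicate number, blue for Ctrl and red for Atoh1S193A/-, lines join littermates and bars are group means. At E14.5 the 3 Atoh1S193A/- libraries lie at or above the Ctrl library of their litter for most members, and at P5 Fos, Junb, Fosb, Npas4 and Atf3 lie above all embryonic libraries. Without 4 microglia-like and macrophage clusters, P5 Fosb was at 11.67 and 14.18 CPM and Atf3 at 4.20 and 4.90 CPM. Embryonic libraries reached 13.4 CPM for Fosb and 15.0 CPM for Atf3.

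Fos was higher in the mutant of every litter at E14.5. Its level in the Ctrl libraries of litters 1, 2 and 3 was 98.8, 41.0 and 82.1 CPM, and in their Atoh1S193A/- littermates 140, 98.4 and 159 CPM. The ratio of mutant to Ctrl was 1.42, 2.40 and 1.94. The groups overlapped by a single pair, the mutant of litter 2 and the Ctrl of litter 1.

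Egr1 gave the same order. It was at 53.3, 21.7 and 28.0 CPM in Ctrl and at 85.1, 52.1 and 55.99 CPM in the mutants, a ratio of 1.60, 2.40 and 2.00. The Junb level was 23.5, 11.96 and 16.7 CPM in Ctrl and 29.0, 26.8 and 27.1 CPM in mutants, where the groups did not overlap. Ier2, which encodes a nuclear protein of unclear function, was at 157, 69.9 and 82.4 CPM in Ctrl and at 196, 121 and 119 CPM in mutants. In all 4 genes each mutant exceeded its own littermate.

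Fosb, Btg2 and Jun were also higher in 3 of 3 litters. Fosb ratios ran from 1.103 to 2.85, Btg2 ratios from 1.16 to 1.56 and Jun ratios from 1.11 to 1.51. Atf3 was at 2.77, 1.12 and 3.11 CPM in Ctrl and at 6.86, 2.85 and 4.43 CPM in mutants, also higher in 3 of 3. Dusp1 was higher in 2 of 3 litters and Npas4 in 1 of 3. In all, 8 of 10 members were higher in the mutant of every litter. Of the 10240 genes with a UMI in 10% of the cells of either genotype, 36.25% were higher in every litter and 24.11% in no litter. Atf3 and Npas4 are not among these genes, and Fosb is among them through the mutants alone. The count of members and the share of genes are therefore of unlike sets.

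In the edgeR quasi-likelihood test without the litter, 0 of the 8 members tested were called at E14.5 (a call needs a false discovery rate, FDR, under 0.05 and an absolute log2 change over 0.25). Of all genes 0.00977% were called, 1 of 10240, so a count of 0 among the members does not stand apart from it. Fos had a log2 change of 0.82 ± 0.34 (SE, FDR 0.424), Egr1 of 0.89 ± 0.35 (FDR 0.417), Fosb of 0.77 ± 0.26 (FDR 0.39) and Junb of 0.65 ± 0.22 (FDR 0.39). These 4 had an unadjusted p under 0.05, as did 1191 genes in all. DESeq2 called 240 genes and 0 members. Atf3 and Npas4 had a UMI in fewer than 10% of the cells of either genotype and were not tested under this limit.

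With the litter as a block, the mutants were higher in 6 of the 8 tested members. Fos rose by a log2 change of 0.88 ± 0.12 (edgeR FDR 0.00872), Egr1 by 0.95 ± 0.09 (edgeR FDR 0.00576) and Junb by 0.70 ± 0.14 (edgeR FDR 0.0211). Fosb rose by 0.83 ± 0.23 (edgeR FDR 0.0455), Ier2 by 0.52 ± 0.08 (edgeR FDR 0.00983) and Btg2 by 0.43 ± 0.07 (edgeR FDR 0.0132). Jun, at 0.28 ± 0.08 (edgeR FDR 0.0575), and Dusp1, at 0.09 ± 0.11 (edgeR FDR 0.555), did not pass. With no detection limit and the block, Atf3 was called (0.99 ± 0.19, edgeR FDR 0.0194) and Npas4 was not (0.01 ± 0.14, FDR 0.977). Fosb entered the test through the mutants alone, with a UMI in 6.74% of Ctrl cells and 11.1% of mutant cells, and had an FDR of 0.0495 with no detection limit. In the fit with the limit 10.1% of all genes were called higher. Of the 7 members over the limit in both genotypes, 5 were called. Leaving out litter 3 reduced the calls to 3 (Fos, Egr1 and Ier2) and leaving out litter 2 to 5, and Fos, Egr1 and Ier2 were called in each of the 3 fits that left out a litter.

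**Figure D2:**
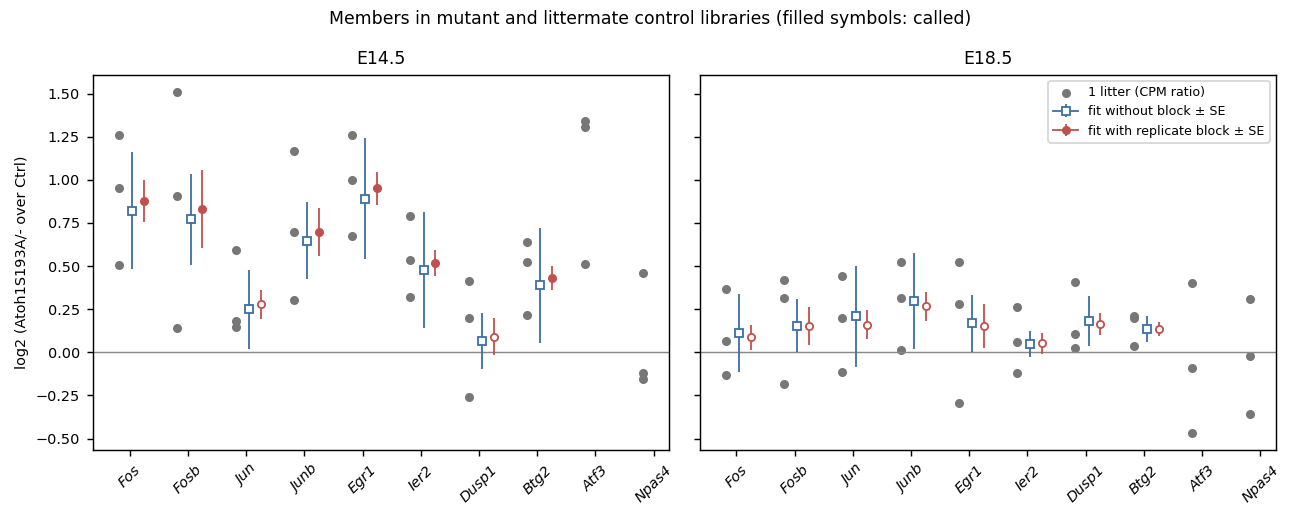
Log2 ratio of the Atoh1S193A/- level to the Ctrl level of the same litter for each member over all kept cells, with 1 gray point per litter, at E14.5 and at E18.5, and a line at 0 for equal levels. Squares and circles are the edgeR log2 changes without and with the litter as a block, with SE bars, filled where called. At E14.5, 27 of 30 gray points lie above the line, and at E18.5, 21 of 30. The points of a litter share the same pair of libraries, and the share of such points over all genes was not computed. At E14.5, 8 of 10 members were higher in every litter, and at E18.5, 3 of 10. Of the genes over the 10% detection limit, without Atf3 and Npas4, 36.25% were higher in every litter at E14.5 and 17.16% at E18.5.

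The makeup of the libraries moved with genotype at E14.5. Neural progenitor-like cells were 18.6, 17.0 and 15.6% of the kept cells of the mutants and 8.8, 7.26 and 6.09% of the Ctrl libraries. The mean Fos level of this class in Ctrl was 160 CPM, with a range of 103 to 232 CPM that overlapped the 41.0 to 149 CPM of differentiated neuron-like cells. Choroid plexus or ependymal cell-like cells were 1.22, 2.49 and 5.69% of the mutant libraries and 0.523, 0.756 and 0.974% of the Ctrl libraries. They held 30.9% of the Fos UMIs of mutant library 3. Without these cells, 5 members were called with the block, Fos had a log2 change of 0.75 ± 0.12 (FDR 0.0136) and Fosb did not pass (FDR 0.065). The median mitochondrial share of the barcodes was 4.67, 3.67 and 3.98% in the mutants and 5.07, 4.21 and 4.53% in their Ctrl littermates. The median depth of a kept cell was 18782, 17649 and 20924 UMIs in the mutants and 18464.5, 17238.5 and 16971 UMIs in Ctrl. The part of either in the difference was not tested. The study lists a female Ctrl and a male mutant in litter 1 of E14.5, and embryos alike in sex in each of the other litters. The part of sex was not tested. In sums over all cells, more cells of a type and more RNA per cell cannot be told apart. With the libraries made by Cell Ranger 5.0.1 alone, 1 Ctrl against 3 mutants, the spread comes from the mutants alone and the Ctrl library is assumed to vary like them. In that fit the log2 change of Fos was 0.63 ± 0.31 and that of Egr1 1.14 ± 0.34 (edgeR FDR 0.997 each). The part of the version in the difference was not tested further.

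Within classes, 29 of 30 pairs of a member and a litter were higher in the mutant in neural progenitor-like cells. The pairs of a litter share the same libraries, so they are not independent, and the share that all genes give within a class was not computed. The counts are a description and do not rank the classes. Their Fos level was 146, 103 and 232 CPM in Ctrl and 272, 195 and 281 CPM in mutants, and their Egr1 level was 77.4, 51.2 and 86.5 CPM in Ctrl and 169, 90.0 and 123 CPM in mutants. Differentiated neuron-like cells had 28 of 30 pairs, and Fos there was at 149, 41.0 and 75.1 CPM in Ctrl and at 154, 90.2 and 137 CPM in mutants. The neural progenitor-like class joins 4 clusters with Fos at 38.6 to 509 CPM over all libraries, and their mix was not compared between genotypes. Newborn neuron-like cells had 25 of 30 pairs, inhibitory neuron-like cells 24, choroid plexus or ependymal cell-like cells 23, cycling cell-like cells 18 and intermediate progenitor-like cells 17.

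Without the litter, 0 of the 55 tests of a member in a class passed at E14.5, where 0.0101% of all tests of a gene in a class did. Of the 55, 12 had an unadjusted p under 0.05 by edgeR, and DESeq2 called 1, Egr1 in intermediate progenitor-like cells. With the litter as a block, 5 of the 55 were called higher, where 0.28% of all tests were, and 4 of the 5 were of members over the detection limit in both genotypes. Egr1 rose in intermediate progenitor-like cells by a log2 change of 1.39 ± 0.22 (edgeR FDR 0.016), from 18.7, 6.95 and 14.2 CPM in Ctrl to 57.5, 32.8 and 22.4 CPM. In neural progenitor-like cells Fos rose by 0.68 ± 0.12 (FDR 0.0472), Egr1 by 0.80 ± 0.11 (FDR 0.0243), Ier2 by 0.47 ± 0.05 (FDR 0.0167) and Atf3 by 0.81 ± 0.12 (FDR 0.0302). Atf3 entered that test through the mutants alone (a UMI in 8.72% of Ctrl and 13.6% of mutant cells). No member passed in differentiated neuron-like cells, where Egr1 had a log2 change of 0.84 ± 0.19 (FDR 0.366). With the block 0 of all 9797 genes passed in that class, so a count of 0 members does not stand apart. There 8 of 9 members had an unadjusted p under 0.05 by edgeR, as did 1306 genes, and all 9 log2 changes were positive.

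At E18.5 no member was called. Fos was at 87.7, 71.2 and 99.7 CPM in Ctrl and at 80.1, 74.6 and 128 CPM in mutants. Egr1 was at 99.2, 74.7 and 84.3 CPM in Ctrl and at 80.9, 90.6 and 121 CPM in mutants. The mutant of litter 3 was the highest library for both, and in litter 1 the mutant was the lower one. Junb, Dusp1 and Btg2 were higher in the mutant of 3 of 3 litters, where 17.16% of the 9884 genes over the detection limit were. The log2 change of Fos was 0.11 ± 0.23 and that of Junb, the largest of the 8, 0.30 ± 0.28 (edgeR FDR 1 for both). In the same fit 0.0% of all genes were called, 0 of 9884, with 118 genes and 0 members at an unadjusted p under 0.05, and DESeq2 called 14 genes and 0 members. With the litter as a block, 0 members and 0.152% of genes were called, and 3 members had an unadjusted p under 0.05 by edgeR.

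Within the classes of E18.5, 0 of 49 tests were called, against 0.0689% of all tests, and 0 with the block, against 0.512%. Of the 49, 2 had an unadjusted p under 0.05 by edgeR without the block and 14 with it, and DESeq2 called 0. The genotype difference at E18.5 less that at E14.5 was tested as an interaction. It was called for 0 of 8 members without the block (0.0% of genes, 0 members under an unadjusted p of 0.05, 0 by DESeq2). With the block it was lower at E18.5 for 3, where 8.33% of genes were called lower: Fos by -0.78 ± 0.17 (FDR 0.0233), Egr1 by -0.78 ± 0.20 (FDR 0.0346) and Ier2 by -0.46 ± 0.11 (FDR 0.0319). None of the 3 was called once E14.5 litter 3 or any E18.5 litter was left out, and leaving out E14.5 litter 2 left 1 member called.

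Other genes of the response, taken from lists, were tested in the same fits. At E14.5 with the block, 3 of 10 tested genes of the feedback inhibitor list (dual-specificity phosphatases, ZFP36 and Sprouty proteins and others) were higher and 0 were lower, where 10.1% of all genes were higher, with a median log2 change of 0.25 where the median of all genes was 0.004. One of them was Zfp36l2, an RNA-binding protein that shortens messages, at 0.89 ± 0.09. Of the EGR, NR4A and other immediate early genes, 2 of 10 were higher, against the same 10.1% (median 0.11), among them Cyr61, a secreted matrix protein, at 1.68 ± 0.18. None of 4 AP-1 partners (median -0.06), 10 heat shock genes (0.05), 8 DNA damage and integrated stress response genes (0.06) and 5 activity-regulated neuronal genes (-0.05) passed, and none of the 10 chemokine genes was tested. A list gene could enter these fits through the mutants alone, as Fosb did, and how many did so was not computed. Cyr61 had a mean of 6.75 CPM in Ctrl and 23.7 CPM in mutants, and Zfp36l2 of 7.03 CPM in Ctrl and 13.2 CPM in mutants. Without the block 0 genes of these lists passed. At E18.5, 0 genes passed with or without the block, with list medians between -0.02 and 0.04.

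Between E14.5 and E18.5 in Ctrl, Egr1 rose and Dusp1 fell. Egr1 was at 53.3, 21.7 and 28.0 CPM at E14.5 and at 99.2, 74.7 and 84.3 CPM at E18.5, with no overlap, and rose by a log2 change of 1.25 ± 0.30 (edgeR FDR 0.0115). Dusp1 fell from 70.3, 45.2 and 47.1 CPM to 42.3, 37.7 and 43.9 CPM, a log2 change of -0.47 ± 0.16 (FDR 0.0436). The same fit called 26.5% of genes higher and 25.1% lower, so 1 of 8 members in each direction is below the background. Egr1 was called without any 1 of the 6 libraries (1.01 to 1.68), whereas Dusp1 was called in 1 of these 6 fits, without E14.5 Ctrl library 2 (-0.58, FDR 0.0194). Atf3 was under the detection limit, and its 3 libraries at 2.77, 1.12 and 3.11 CPM did not overlap the 15.0, 6.08 and 9.76 CPM of E18.5. With no limit it was called (2.08 ± 0.41, edgeR FDR 0.0044). This comparison shares the E14.5 Ctrl libraries with the genotype comparison, and the Cell Ranger version moves with stage in it too, 3.1.0 in 2 of the 3 E14.5 libraries and 5.0.1 in all of E18.5. With version 5.0.1 alone, 1 E14.5 library against 3, Egr1 was called (1.49 ± 0.16, edgeR FDR 0.00502) and Dusp1 was not (-0.32 ± 0.12, FDR 0.0803).

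The classes held larger differences between the stages than the sums did. Of 41 tests of a member in a class, 15 were higher at E18.5 and 5 lower, where 19.2% and 17.6% of all tests were. Of the 15, 4 were of a member that was over the detection limit at E18.5 alone, where it was high. They are Atf3 in cycling cell-like and newborn neuron-like cells and Fosb in cycling cell-like and neural progenitor-like cells. Of the 35 tests of a member over the limit at both stages, 11 were higher and 5 lower. Egr1 was higher in all 5 classes compared, from 1.41 ± 0.30 in inhibitory neuron-like cells to 2.22 ± 0.40 in newborn neuron-like cells, where it went from 67.8, 19.3 and 20.7 CPM to 164, 149.7 and 203 CPM. Different clusters held most of that class at the 2 stages. At E14.5 its largest cluster, of 2147 cells, was led by Crabp1 and Robo3 and had Egr1 at 50.5 CPM, while at E18.5 the cluster led by Crabp1, Robo3 and Hoxb3 held 449 cells and had 36.3 CPM, and the other 4 had 101 to 319 CPM. A difference in kind of cell and a difference in level cannot be told apart there. The same holds for differentiated neuron-like cells, whose 11 clusters at E14.5 had Egr1 at 12.9 to 41.4 CPM over all libraries, while at E18.5 4 clusters had 57.6 to 160 CPM and the other 3 had 18.7 to 28.7 CPM. Cycling cell-like cells were 1 cluster at E14.5 (25.6 CPM) and 5 at E18.5 (25.9 to 129.8 CPM). Fos was higher in neural progenitor-like cells (1.77 ± 0.32), inhibitory neuron-like cells (1.84 ± 0.37) and newborn neuron-like cells (1.48 ± 0.21). In neural progenitor-like cells it went from 146, 103 and 232 CPM to 914, 461 and 422 CPM, with 32, 43 and 90 cells in the E18.5 libraries. The E18.5 class joins 2 unlike clusters. Over all libraries, the one of 304 cells, led by Fabp7, Sparcl1 and Apoe and with a high astrocyte marker score as well (2.71 against 3.05), had Fos at 858 CPM and Egr1 at 331 CPM, and the one of 156 cells had Fos at 57.5 CPM and Egr1 at 31.9 CPM. The 4 clusters of the E14.5 class had Fos at 38.6 to 509 CPM, so the higher level rests on the first cluster.

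Fosb was higher in neural progenitor-like cells (2.40 ± 0.46) and cycling cell-like cells (2.02 ± 0.29), Junb in neural progenitor-like cells (1.58 ± 0.31) and newborn neuron-like cells (1.06 ± 0.23), and Atf3 in cycling cell-like cells (2.47 ± 0.65) and newborn neuron-like cells (2.48 ± 0.35). At E14.5 the Atf3 and Fosb values stood on a UMI in 2.49 to 7.5% of cells, and all 4 were also called with no detection limit. Dusp1 and Btg2, which restrain signaling and proliferation, were called in the lower direction alone. Dusp1 was lower in cycling cell-like cells (-0.92 ± 0.22), differentiated neuron-like cells (-0.60 ± 0.21) and inhibitory neuron-like cells (-1.29 ± 0.36), and Btg2 was lower in cycling cell-like cells (-0.86 ± 0.18). Ier2 was higher in differentiated neuron-like cells (0.74 ± 0.24) and lower in cycling cell-like cells (-0.61 ± 0.18). In the neurons its level also followed the cluster, at 17.3 to 72.6 CPM in those of E14.5, 72.4 to 172 CPM in 4 of E18.5 and 19.7 to 43.7 CPM in the other 3, so kind of cell and level cannot be told apart. Inhibitory neuron-like cells had 2 libraries at E18.5, since 1 Ctrl library held only 6 of them. Leaving out E18.5 Ctrl library 1 left 11 calls in place of 20.

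In the stage comparison over all cells, where 26.5% of genes were higher and 25.1% lower, the response lists held calls in both directions, and their counts are given as a description. Of the EGR and NR4A list, 2 of 9 were higher (Klf10, a zinc finger factor, 1.12 ± 0.22, and Srf, the factor that binds CArG boxes, 0.94 ± 0.21) and 2 lower (Nr4a2, an orphan nuclear receptor, -2.67 ± 0.32, and Ier5l, -0.52 ± 0.15), median -0.08. Of the feedback inhibitors, 2 of 10 were higher and 2 lower (median 0.47), of the heat shock genes 2 and 3 of 10 (0.07), of the stress response genes 3 and 1 of 9 (0.17), and of the activity-regulated genes 2 and 3 of 6 (-0.42). One of 4 AP-1 partners was lower (median -0.11). The median of all genes was 0.009. Whether a list gene was over the detection limit at both stages was not checked.

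Within a stage, each member had its own order of named classes. Classes were drawn from the same cells but with the 10 members left out, and their contrast with differentiated neuron-like cells is given as a description, since 59.3% of all tests passed at E14.5, 53.6% at E18.5 and 57.6% at P5. Of the tests of a member, 39 of 54, 34 of 45 and 44 of 60 passed.

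At E14.5 in Ctrl, among the named classes, Fos was highest in choroid plexus or ependymal cell-like cells, at 329, 177 and 692 CPM in libraries 1, 2 and 3. Neural progenitor-like cells followed at 103 to 232 CPM and overlapped them. Over all libraries, an unnamed cluster of 116 cells had Fos at 752 CPM, where the 2 choroid plexus or ependymal cell-like clusters had 672 and 375 CPM. Newborn neuron-like (14.9 to 29.5 CPM) and intermediate progenitor-like cells (7.92 to 25.2 CPM) were lowest. Among the E18.5 classes with at least 10 cells in 2 or more Ctrl libraries, which leaves out the 3 to 6 microglia-like cells of each, neural progenitor-like cells were highest, at 422 to 914 CPM, above inhibitory neuron-like cells at 178 to 222 CPM and differentiated neuron-like cells at 147 to 175 CPM, with no overlap between these neighbors. This place rests on the cluster of 304 cells led by Fabp7, Sparcl1 and Apoe (Fos at 858 CPM), genes that astroglia also express, and the other 156 cells of the class had Fos at 57.5 CPM, below both neuron classes. Cycling cell-like cells were lowest at 27.9 to 55.4 CPM.

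Jun differed from Fos in where its low end lay. Differentiated neuron-like cells had the lowest mean at every stage, at 78.6 to 121 CPM at E14.5, 102 to 115 CPM at E18.5 and 77.5 to 92.7 CPM at P5. At E18.5 inhibitory neuron-like cells overlapped them, with a mean of 134 CPM and an SD of 75.6 CPM over 2 libraries. Among these embryonic classes newborn neuron-like cells were highest, at 219 to 348 CPM at E14.5 and 329.8 to 413 CPM at E18.5, although they overlapped neural progenitor-like cells both times.

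Btg2 was lowest in differentiated neuron-like cells at E14.5 (22.9 to 44.2 CPM) and highest in intermediate progenitor-like cells (158 to 305 CPM). The 5 classes from intermediate progenitors to choroid plexus or ependymal cell-like cells overlapped their neighbors, and the step down to the neurons did not. Ier2 had the same step, from 62.4 to 172 CPM in choroid plexus or ependymal cell-like cells to 31.3 to 53.8 CPM in inhibitory neuron-like cells.

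Npas4 was the only member that was highest, among the named classes, in differentiated neuron-like cells at each stage. It was at 2.92 to 11.96 CPM there at E14.5, overlapping the 2.23 to 6.42 CPM of inhibitory neuron-like cells, 5.50 to 9.67 CPM at E18.5 and 19.9 and 21.4 CPM at P5. Neural progenitor-like cells had 0.177 to 0.555 CPM at E14.5. After each cell was thinned to 5000 UMIs, 8.36% of P5 differentiated neuron-like cells had an Npas4 UMI (33.7% unthinned), against 0.66% of astrocyte-like cells (1.46% unthinned), which should lack the gene. The median depth was 28016 to 30427.5 UMIs in the neurons and 9586 to 12613.5 in the astrocytes.

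**Figure D3:**
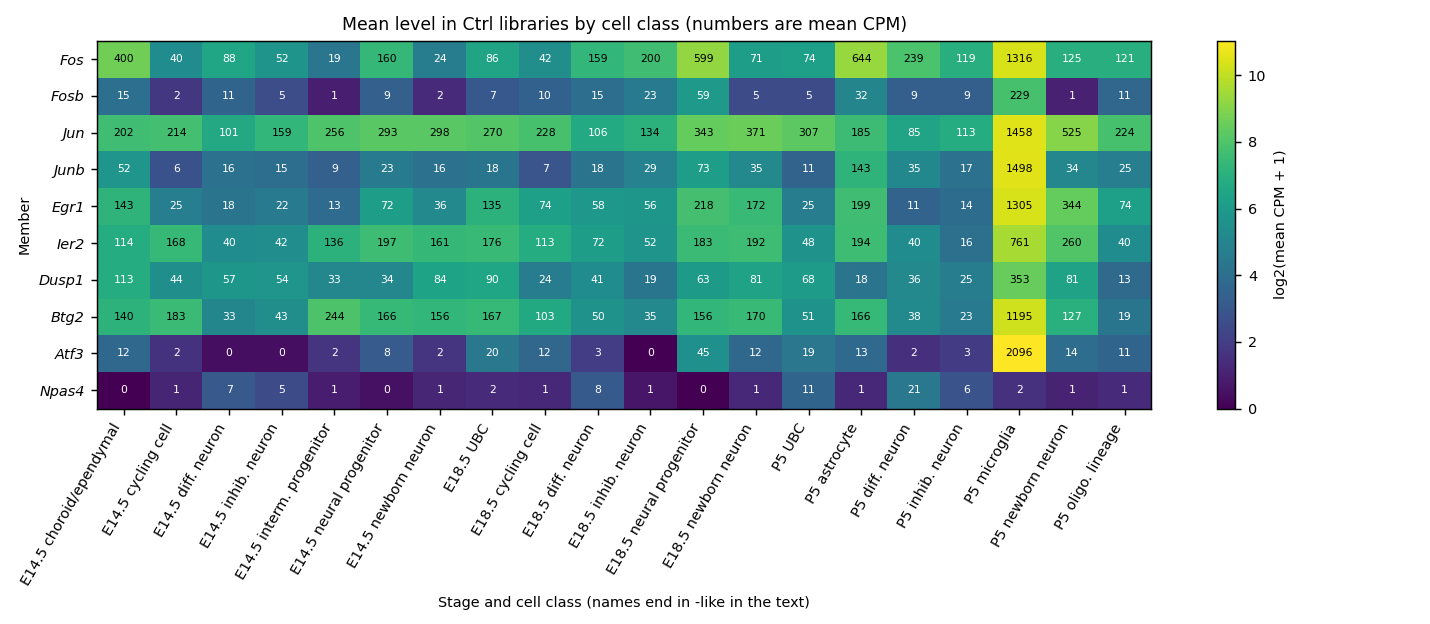
Mean level of each member in each cell class of the Ctrl libraries at E14.5, E18.5 and P5, drawn as a color scale of log2(mean CPM + 1) with the mean CPM printed in each cell. Among the named classes drawn, the microglia-like column of P5 is the highest for 9 of 10 members, and Npas4 is highest in differentiated neuron-like cells.

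Among the named classes, P5 microglia-like cells had the highest mean level of 9 of the 10 members, all but Npas4. The 495 and 274 cells (5.67 and 5.19% of the kept cells) had all 12 microglial markers, at a summed 29155 and 30601 CPM, against 348 and 437 CPM in the other cells of the same libraries. Microglia do not arise from Atoh1-expressing cells, and the sort was for TdTomato. How they came through the sort was not tested.

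Atf3 differed the most. It was at 2264 and 1928 CPM in microglia-like cells and at 1.76 and 2.02 CPM in differentiated neuron-like cells, a log2 change of 10.55 ± 0.56. In these neurons Atf3 was under the 10% detection limit, so it did not enter this contrast through them. It had a UMI in 4.89% of the neurons with a Fos UMI and 3.18% of those without, before thinning. Endothelial or mural cell-like cells, with 46 cells in library 1 and 8, too few to be used, in library 2, had 89.6 CPM in library 1, and unipolar brush cell-like cells, the next of the classes in both libraries, had 12.2 to 26.8 CPM. Microglia-like cells held 72.1 and 60.6% of all Atf3 UMIs of the libraries. Egr1 was at 1675 and 936 CPM in microglia-like cells and at 10.2 and 10.9 CPM in differentiated neuron-like cells, a log2 change of 7.40 ± 0.35, and 47.2 and 28.3% of its UMIs lay in microglia-like cells.

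Junb was at 1613 and 1382 CPM (log2 change against neurons 5.89 ± 0.27), Btg2 at 1138 and 1251 CPM (5.43 ± 0.22), Fosb at 334 and 123 CPM (5.11 ± 0.34) and Ier2 at 908 and 614 CPM (4.75 ± 0.30). Jun was at 1872 and 1045 CPM (4.62 ± 0.37) and Dusp1 at 394 and 313 CPM (3.78 ± 0.22). Fos was at 1993 and 639 CPM (2.87 ± 0.38), and its second library overlapped astrocyte-like cells, at 553 and 735 CPM. Npas4, at 3.58 and 0.348 CPM, was lower than in neurons (-2.69 ± 0.37). In this contrast 36.9% of all genes were called higher and 41.8% lower, and among the members 9 were higher and 1 lower. The 9 include Atf3, which was under the detection limit in the neurons. The 1 lower is Npas4, which was under it in microglia-like cells, with 17 UMIs in 495 cells and 1 UMI in 274. A count over members above the limit in both classes is not given.

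Of the 7 response lists, 5 were mostly higher in microglia-like cells than in neurons, by the same description. A gene entered this fit when any class had a UMI in 10% of its cells, so it could enter through the class where it is high. In neurons Il1a had a mean of 0.43 CPM, Egr2 of 0.09 CPM and Batf of 0.01 CPM. Which list genes were over the limit in both classes was not computed, so the counts below do not stand as support. All 10 chemokine and cytokine genes were higher (median 10.41), among them Il1a, an interleukin 1 gene, at 11.10 ± 0.23, and the chemokines Ccl3, at 11.05 ± 0.36, and Ccl4, at 10.96 ± 0.28. Of the feedback inhibitors 12 of 15 were higher and 3 lower (median 5.95). Zfp36, which destabilizes messages of cytokines, was at 9.79 ± 0.32 and Nfkbiz at 9.23 ± 0.17. Of the EGR and NR4A list 13 of 16 were higher and 2 lower (median 2.41), led by Egr2 (9.33 ± 0.29) and Egr3 (7.59 ± 0.16), and of the AP-1 partners 8 of 9 and 1 (1.43), led by Batf (9.86 ± 0.46).

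Heat shock genes were split, 6 higher and 5 lower of 13 (median 0.18). Of the DNA damage and stress response genes 8 of 11 were higher and 2 lower (1.41), with Gadd45b at 5.56 ± 0.13 and Ddit4 at -2.04 ± 0.27. Activity-regulated neuronal genes were lower in 6 of 7 (median -3.54), led by Bdnf, a neurotrophin, at -4.59 ± 0.29. The median of all genes was -0.12. The chemokine genes are known products of microglia and macrophages, and the lists were chosen with earlier results of these data known.

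The microglia-like class was not uniform. One cluster of 648 cells had a sum over the 10 members of 11397 CPM, with Cx3cr1 and Ccl4 among its leading genes. The other, of 121 cells led by Aif1, Tyrobp and Fcer1g, had 1222 CPM, with Atf3 at 219 CPM against 2278 CPM, Egr1 at 90.3 against 1492 CPM and Fosb at 13.5 against 273 CPM. All members but Npas4 were lower in the smaller cluster in both libraries. Its cells were also shallow, with a median UMI count of 0.19 of that of their library, where the larger cluster was at 0.54, and the part of depth in this difference was not tested. Unnamed clusters with macrophage or chemokine genes reached as high. One of 195 cells led by Pf4, Mrc1 and Ccl2 exceeded the larger microglia-like cluster for Fos (2693 against 1577 CPM), Fosb (992 against 273 CPM), Junb, Dusp1 and Btg2. Another, of 168 cells led by Top2a, Mki67 and Cxcl10, exceeded it for Egr1 (1829 against 1492 CPM), Jun, Junb, Ier2 and Dusp1.

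**Figure D4:**
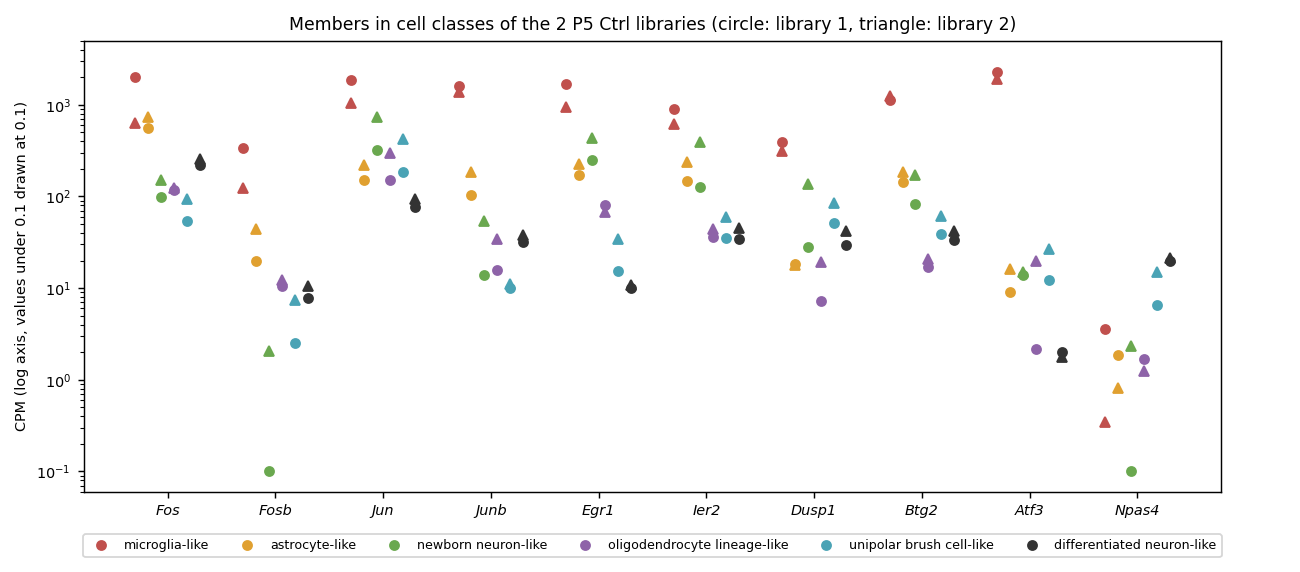
Level of each member in 6 classes of the 2 P5 libraries, in CPM on a log axis, with a circle for library 1 and a triangle for library 2. Microglia-like cells lie above the other classes drawn for Atf3, Junb, Jun, Egr1, Btg2, Ier2, Dusp1 and Fosb, overlap astrocyte-like cells for Fos, and lie below neurons for Npas4.

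Sums over all P5 cells moved when these cells were left out. Atf3 was at 80.7 and 71.9 CPM over all kept cells and at 4.20 and 4.90 CPM without the 4 microglia-like and macrophage clusters, which left 8032 of 8726 and 4842 of 5280 cells. Egr1 went from 91.2 and 74.9 CPM to 25.4 and 34.6 CPM, Junb from 98.1 and 105 CPM to 36.7 and 42.3 CPM, and Fos from 300.5 and 278 CPM to 224 and 254 CPM. Fosb went from 26.3 and 24.9 CPM to 11.67 and 14.18 CPM.

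In differentiated neuron-like cells, 6 of 9 tested members were called between P5 and E18.5, 3 in each direction, where 67.9% of all genes were, so the count does not stand apart from the background. Fos rose from 175, 156 and 147 CPM at E18.5 to 219 and 258 CPM at P5 (log2 change 0.73 ± 0.11, edgeR FDR 0.000219). Junb rose from 20.4, 15.1 and 19.0 CPM to 31.7 and 38.3 CPM (1.08 ± 0.14, edgeR FDR 0.000103). Npas4 rose from 9.67, 5.50 and 8.17 CPM to 19.9 and 21.4 CPM (1.53 ± 0.17, edgeR FDR 4.3e-05), and was over the detection limit at P5 alone (a UMI in 9.06% of E18.5 cells and 33.7% of P5 cells). The groups did not overlap for any of the 3, but they did not overlap for Jun and Btg2 either, which were not called. The share of all genes without overlap was not computed.

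Egr1 went down over the same interval, from 73.6, 53.2 and 47.4 CPM to 10.2 and 10.9 CPM (-2.32 ± 0.17, edgeR FDR 2.72e-06), and so did Ier2 (-0.70 ± 0.19, FDR 0.00734) and Fosb (-0.58 ± 0.17, FDR 0.0131). Jun, Dusp1 and Btg2 did not pass (-0.18 ± 0.11, -0.03 ± 0.16 and -0.25 ± 0.12), and Atf3 was not tested. Fos, Junb, Npas4 and Egr1 were called without any 1 of the 5 libraries. The 7 clusters of the P5 class had Egr1 at 6.82 to 14.2 CPM, below each of the 7 E18.5 clusters at 18.7 to 160 CPM, but the clusters were drawn within each stage, so a difference in kind of cell and a difference in level cannot be told apart.

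Egr1 and Ier2 fell in 2 other classes as well. In unipolar brush cell-like cells, glutamatergic interneurons of the cerebellum and cochlear nuclei, Egr1 fell by 2.54 on the log2 scale (± 0.25), Ier2 by 1.87 (± 0.17), Btg2 by 1.69 (± 0.19) and Junb by 0.72 (± 0.23), Junb being over the detection limit at E18.5 alone. In inhibitory neuron-like cells Egr1 had a log2 change of -2.09 ± 0.41 and Ier2 of -1.76 ± 0.40, neither of them called by DESeq2. In newborn neuron-like cells the change was the other way, with Fos at 1.08 ± 0.13, Egr1 at 1.20 ± 0.21, Ier2 at 0.83 ± 0.23 and Dusp1 at 0.68 ± 0.17, of which DESeq2 called Egr1 alone. The P5 class is 1 cluster led by Neurod1 and Otx2, and the E18.5 class is 5 other clusters. P5 library 1 held 10 cells and library 2 held 423, and without library 2 the values were 0.14 for Fos, 0.22 for Egr1, -0.94 for Ier2 and -1.86 for Dusp1.

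Over all classes, 16 of 34 tests of a member were called between P5 and E18.5, against 37.7% of all tests, and 7 of them were higher at P5, against 19.2%. Stage, dissected region (PN against hindbrain) and pooling of pups cannot be told apart in this comparison.

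The number of members detected in the same cell was also counted. The share that the separate detection rates of the members would give was not computed, so high levels and joint detection cannot be told apart. In P5 microglia-like cells thinned to 5000 UMIs, 85.5% of cells held a UMI of at least 5 of the 10 members (83.5 and 87.4% in the 2 libraries), against 2.14% of differentiated neuron-like cells and 21.6% of astrocyte-like cells. In classes used in a single P5 library the share was 32.4% of newborn neuron-like, 31.7% of endothelial or mural cell-like and 25% of neural progenitor-like cells. Without thinning the shares were 79.3, 52.2 and 36.4% in microglia-like, differentiated neuron-like and astrocyte-like cells, and 44.2, 50 and 35.7% in the other 3. Of the embryonic Ctrl classes, choroid plexus or ependymal cell-like cells reached 19.9% at E14.5, neural progenitor-like cells reached 8.59% at E14.5 and 21.4% at E18.5, and newborn neuron-like cells rose from 3.28% to 15.1%. Thinning leaves out cells under 5000 UMIs and kept 664 of 769 microglia-like cells, the 105 left out being the shallowest. The median depth of microglia-like cells was 9586 to 10172.5 UMIs.

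**Figure D5:**
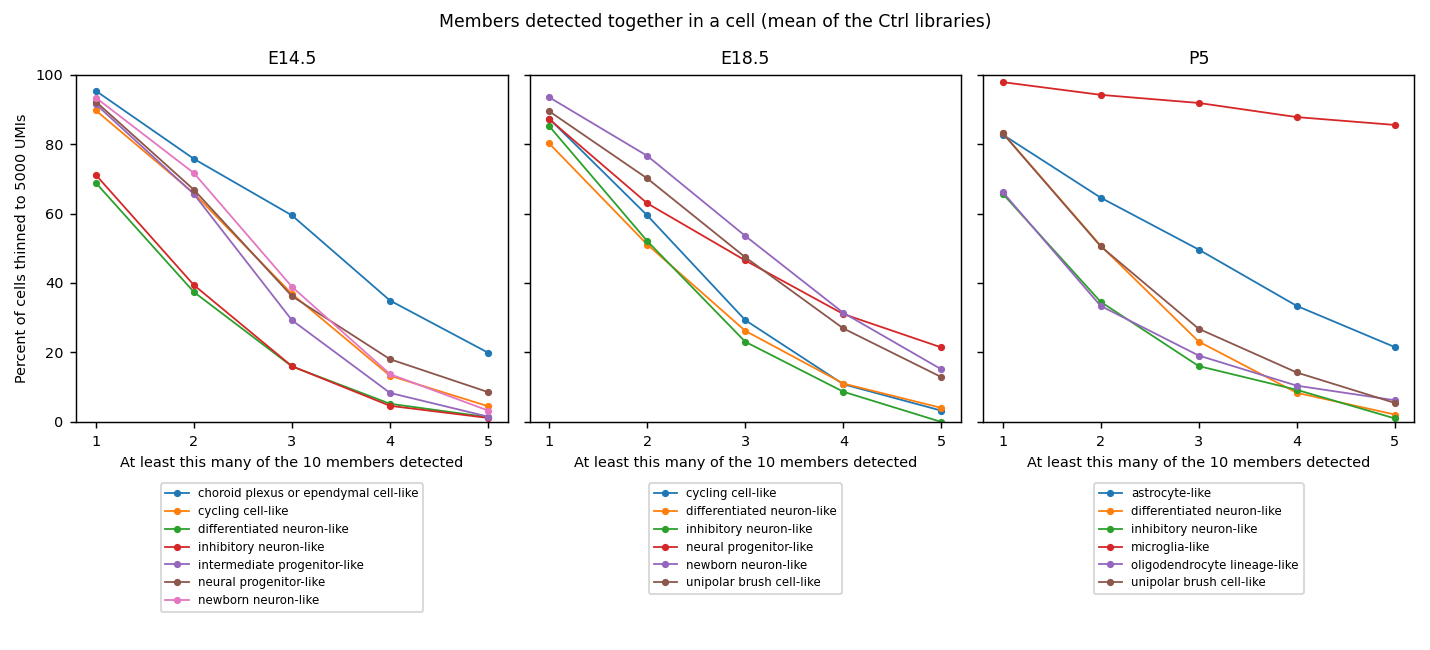
Percent of cells, thinned to 5000 UMIs, with a UMI of at least 1, 2, 3, 4 or 5 of the 10 members, by class and stage, as the mean of the Ctrl libraries. The P5 microglia-like line stays near the top and ends at 85.5% for 5 members, while differentiated neuron-like cells end at 2.14%.

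Within differentiated neuron-like cells, cells with a Fos UMI held Npas4 and Fosb more often. Npas4 was detected in 5.76% of cells with Fos and 2.09% of those without at E14.5, in 5.00 and 1.71% at E18.5, and in 10.5 and 5.43% at P5, after thinning. Without thinning these were 12.4 and 4.95% at E14.5, 11.96 and 3.63% at E18.5, 37.6 and 9.18% at P5. Fosb was detected in 8.15 and 2.80% at E14.5, 10.7 and 4.27% at E18.5 and 5.43 and 3.89% at P5. Both were higher in cells with Fos in every Ctrl library of the 3 stages, and so were Egr1, Ier2 and Dusp1. Btg2 and Atf3 were higher in 1 of 3 libraries at E14.5. These are shares of cells within a library and carry no test.

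The members differed with the share of mitochondrial UMIs of a cell, a sign of damage, and not in 1 direction. Barcodes of all kinds of cell were pooled here and their makeup was not compared, so cell makeup and damage cannot be told apart. Among barcodes with 5 to 10% mitochondrial UMIs, which were left out of the kept cells, Fos was higher than among those under 5% in 14 of 14 libraries (median ratio 1.58), Fosb in 14 (1.55), Junb in 14 (1.43), Dusp1 in 12 (1.28) and Atf3 and Egr1 in 11 (1.36 and 1.16). Jun was higher in 4 of 14 (0.94). At 10% or more the members split: Npas4 was higher in 14 of 14 (2.68) and Fosb in 13 (2.22), whereas Fos was higher in 5 (0.683), Junb in 4 (0.81) and Egr1, Ier2 and Jun in 0.

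Across 80 sums of a class in a library (at least 50 cells each), Fos and Fosb had the most similar levels after Ier2 and Btg2, with a Pearson r of 0.86 and 0.91, and the lowest r was that of Ier2 with Npas4, -0.60. Among 9355 genes outside the members, Atf3 was closest to Gem (0.92) and Ctsa (0.91), Junb to Nr4a1 (0.90) and Npas4 to Paqr9 (0.90). Fosb was closest to Klf2 (0.87), Btg2 to Numb (0.85), Fos to Fuca2 (0.82), Egr1 to Il11ra1 (0.82), Ier2 to Mapkapk2 (0.81), Dusp1 to Ier3 (0.78) and Jun to Tmem168 (0.72). The sums share libraries, depth and class makeup, so r is a description and carries no p.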

How the data were processed

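The authors sorted TdTomato-positive cells, made 10x 3′ v3.1 libraries and counted UMIs with Cell Ranger on mm10 with a WPRE sequence added. The deposited matrices hold raw UMI counts per gene and barcode. Per the file headers the version was 3.1.0 for 2 libraries and 5.0.1 for 12. Cells with at least 1000 genes and under 5% mitochondrial UMIs were kept, and the top 7.5% by Scrublet score were removed as doublets in each library. Cells were clustered per stage without the 10 genes and the response lists (scanpy 1.11.5, 2000 variable genes, 30 components, 15 neighbors, Leiden resolution 1.0). Clusters were named from marker lists, with at least 3 markers detected and a score of at least 0.4, a limit set after the cluster means were seen. Unnamed clusters held 5685, 4505 and 2791 cells at E14.5, E18.5 and P5, and they enter the sums over all kept cells. UMI counts were summed per library, or per library and class with at least 10 cells, and tested with the quasi-likelihood test of edgeR 4.0.16 (R 4.3.3, TMM factors, Benjamini-Hochberg FDR). Genes needed a UMI in 10% of the cells of either group, or of any class in the class contrasts. CPM was computed without TMM factors, and log2 changes are on the TMM scale. The class contrasts have the library as a block. Alternatives were DESeq2 1.42.0, the litter as a block, no detection limit, a 10% mitochondrial limit, doublets kept and each library left out.

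The study's methods state that each mutant was collected with a littermate control, but not which replicate numbers belong to a litter. That equal numbers name a litter is an assumption of the fits with the block. The same-numbered Ctrl and mutant libraries deviated together, with correlations of 0.565, 0.733 and 0.683 over 13567 genes at E14.5 and of 0.612, 0.657 and 0.865 over 12909 genes at E18.5. Whether the litter or another step shared by a pair gave this was not tested. The tests were also run on simulated counts with known changes, whose outcome is not given here. The members and lists were chosen with earlier results of these data known. The genes named are the 10 members and, from each list, up to 3 called genes of largest change in each direction whose libraries do not overlap between the groups. Genes most like a member were ranked by Pearson r of log2(CPM + 10) among genes with a mean of at least 10 CPM.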

Additional observations from a re-analysis of the deposited data

Results flagged for a closer look

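The genotype difference at E18.5 less that at E14.5, tested as an interaction in edgeR with the litter as a block, passed for 3 members. It was -0.781 on the log2 scale for Fos, -0.784 for Egr1 and -0.455 for Ier2. In that fit 8.33% of all genes were called lower. With 1 litter left out, Fos was called in 2 of 6 fits, and Egr1 and Ier2 in 1 of 6 each. Without the block none of the 3 passed.

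The other 4 values are from clusters that entered no comparison within classes, although their cells are in the sums over all kept cells. E18.5 microglia-like cells, 38 over the 6 libraries and 2 to 14 in each, had a sum over the 10 members of 10790.61 CPM, with Atf3 at 1510 CPM and Fos at 1557 CPM. At P5, an unnamed cluster of 195 cells led by the macrophage genes Pf4 and Mrc1 had 12228.23 CPM, with Fos at 2693 CPM, Fosb at 992 CPM and Dusp1 at 961 CPM. An unnamed cluster of 168 cells, in which genes of dividing cells stood beside microglial genes, had 10829.36 CPM. An unnamed cluster of 114 cells led by Vtn, Col1a2 and Col3a1 had 6496.82 CPM, with Fos at 2077 CPM and Atf3 at 225 CPM.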

How the results depend on the processing

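At E14.5, 0 members were called over all cells without the litter as a block and 6 with it. Of all genes, 1 was called without the block, 1039 were higher and 718 lower with it, and DESeq2 called 158 higher and 82 lower. Settings combined with the block were added after the data were seen, and they gave 5 without choroid plexus or ependymal cell-like cells, 7 with DESeq2, 7 with no detection limit, 6 at a 10% mitochondrial limit, 5 with doublets kept and 6 with all barcodes. Leaving out a litter gave 3 to 6. These E14.5 fits with the block tested 8 members each, but 10 with no detection limit. The share of all genes called under each alternative setting of this paragraph is not given. The counts show only how the calls of the members move. The interaction was called for 0 members without the block and 3 with it, and with the block for 3 without choroid plexus or ependymal cell-like cells, 4 with DESeq2, 4 with no detection limit, 5 at 10%, 3 with doublets kept and 4 with all barcodes. Leaving out a litter gave 0 to 6, with 6 without E14.5 litter 1 and 1 without litter 2. Within E14.5 classes the count went from 0 to 1 with DESeq2 and to 5 with the block, which changed no call at E18.5. Between the stages over all cells, 2 became 3 with DESeq2 (Fosb as well), 1 at a 10% mitochondrial limit, 1 with Cell Ranger 5.0.1 alone (1 E14.5 library, assumed to vary like the others), 1 with all barcodes, 1 without choroid plexus or ependymal cell-like cells, and 1 to 4 without a library. Within classes, 20 became 11 to 23 without a library, and at P5, 16 became 10 with DESeq2 and 13 to 16 without a library. Directions that turned in fits without 1 library include the following: Btg2 between the stages ranged from -0.285 to 0.33 (without E14.5 Ctrl library 1), Jun in cycling cell-like cells from -0.49 (without E18.5 Ctrl library 3) to 0.27, and in newborn neuron-like cells at P5 Ier2 from -0.94 to 1.075 and Dusp1 from -1.86 to 0.77, both lowest without P5 Ctrl library 2. At E14.5 Dusp1 was positive in 11 of 14 fits without the block (-0.047 to 0.276), and its lowest value with it was -0.044. The cause was not tested. The P5 class contrasts could not be fitted without a library, since 1 library leaves no residual degrees of freedom. Low counts limit Atf3 and Npas4, which the detection limit kept out of most fits over all embryonic cells. With no detection limit Atf3 was called between the stages (2.08, edgeR FDR 0.0044) and at E14.5 with the block (0.99, FDR 0.0194), not without it (0.97, FDR 0.493), and Npas4 was not called in any of the 3 fits.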
